A study of Mus musculus with 5 samples.

Results

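The genes described here are 9 components of LIF, JAK and STAT3 signalling, measured in mouse embryonic stem (ES) cells with and without Dicer, the enzyme that releases mature microRNAs from their precursor hairpins. They are the receptor chain genes Lifr and Il6st, the kinase genes Jak1 and Jak2, the transcription factor gene Stat3, the inhibitor genes Socs3 and Socs2, and the kinase genes Pim1 and Pim3. They were chosen by name from the pathway, with no measured value in the rule. Earlier results of these data were known when they were chosen, so the counts below describe these genes only. All 9 had a probe set that carries only their symbol, of 19938 genes measured in that way, and where a gene had several, the brightest on average over the 5 arrays was read.

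RNA came from 3 wild-type and 2 Dicer-deficient cultures, all asynchronous, each hybridised to its own Affymetrix whole-transcript array and numbered as in the labels. Both genotypes grew without feeder cells in equal parts of a serum medium with LIF and the serum-free N2B27 medium with the 2i inhibitor pair, so every culture received LIF. The design text describes a mitotic arrest only for other samples. The design text calls the cultures biological replicates. The labels name no line, clone or Dicer1 allele, so Dicer loss and any further difference between the cells of the 2 genotypes cannot be told apart. Further samples that the design text mentions were not analysed here.

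LIF, a cytokine of the interleukin-6 family, holds mouse ES cells in self-renewal. It joins its own receptor chain, LIFR, to the shared chain gp130, which is encoded by Il6st. Kinases of the JAK family bound to both chains phosphorylate gp130, which recruits STAT3. STAT3 is then phosphorylated, pairs up and enters the nucleus. There it activates genes of self-renewal as well as Socs3, whose product binds gp130 and JAK and shuts the signal down. The receptor also feeds the ERK and PI3K pathways through the phosphatase SHP2.

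Dicer1 had signals of 8.84, 8.82 and 8.85 in the wild-type arrays and of 7.20 and 6.84 in the Dicer-deficient arrays. The labels do not say which exons were deleted, so whether this probe set covers them is unknown. All signals were read as normalized log2 values, with array medians from 5.39 to 5.45. The median over probe sets of their mean signal was 5.40, called the array-wide median here. All 8 markers of mouse ES cells examined exceeded it in wild-type cells, and their mean signal was 10.9 to 11.1 in the wild-type and 10.8 to 11.0 in the Dicer-deficient arrays. Of these, Esrrb and Tdgf1 fell in the limma test described below (log2 differences -0.72 and -0.70, adjusted p = 0.00655 and 0.00168). Leaving out wild-type culture 2 or Dicer-deficient culture 2 raised the adjusted p of Esrrb to 0.0535 or 0.0914. For comparison, that test called 8.48% of all genes higher and 8.6% lower. Among genes above the array-wide median these shares were 13.5% and 14.4%. Of 8 trophectoderm markers 3 rose, Krt8 by 1.54, Gata3 by 1.23 and Krt18 by 0.49 (adjusted p = 0.000175, 0.000177 and 0.028). The Krt18 call did not survive removal of wild-type culture 1 or 2 or either Dicer-deficient culture (0.105 to 0.258). Eomes had a log2 difference of -0.49 (adjusted p = 0.0977) with both Dicer-deficient values below the wild-type range, and Cdx2, Elf5, Tfap2a and Hand1 had differences from -0.05 to 0.06. The mean over those 8 was 5.66 to 5.76 in the wild-type and 6.08 to 6.09 in the Dicer-deficient arrays. Of 9 primitive endoderm markers 1 fell, the laminin gene Lamb1 (log2 difference -1.42, adjusted p = 0.000296). This count is near the share of all genes called lower and is no result about these markers. The mean of the 9 was 5.51 to 5.72 against 5.45 to 5.46. The mean of 10 feeder fibroblast markers was 5.03 to 5.20 against 5.06 to 5.12. The part of trophectoderm-like or other cells in the results below was not tested, and fewer cells of a type and less RNA per cell cannot be told apart in these bulk samples.

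Transcripts of the receptor and its kinases were higher in Dicer-deficient cells, while Stat3 and Pim1 were lower. Of the 9 genes, Lifr, Il6st, Jak1 and Jak2 rose, Stat3 and Pim1 fell, and Socs3, Socs2 and Pim3 did not pass the test. The test was limma's moderated linear model across all genes, at a Benjamini-Hochberg adjusted p of 0.05. It called 17.1% of all genes, 8.48% higher and 8.6% lower, against 6 of these 9. All 9 had a mean signal above the array-wide median, and among the 11189 genes above it the share called was 27.9%, 13.5% higher and 14.4% lower. The median absolute log2 difference was 0.64 over the 9 genes and 0.12 over all genes. The latter includes genes under the array-wide median, and no value for the genes above it is given. For 8 of the 9 both Dicer-deficient values lay outside the wild-type range, above it for 5 and below it for 3. Such separation was seen for 39.9% of all genes, 20% above and 19.9% below. Leaving out Dicer-deficient culture 1 left 3 of the 6 calls (Il6st, Jak2 and Pim1), and leaving out culture 2 also left 3 (Il6st, Jak2 and Stat3).

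**Figure D1:**
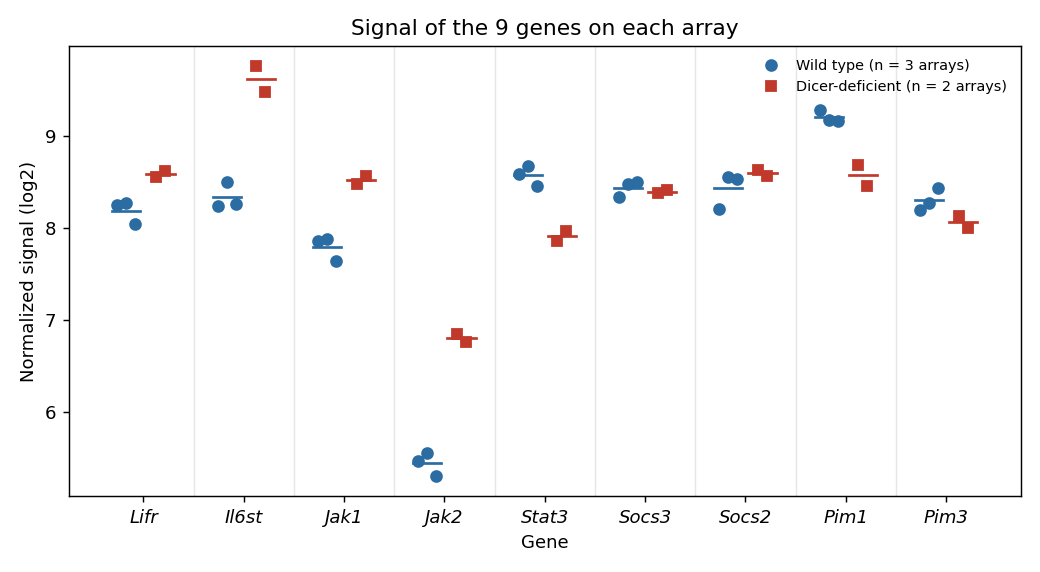
Normalized log2 signal (vertical axis) of the 9 genes (horizontal axis) on each of 3 wild-type arrays (circles) and 2 Dicer-deficient arrays (squares), with a short line at each group's mean. The squares lie above the circles for Lifr, Il6st, Jak1 and Jak2 and below them for Stat3 and Pim1, whereas those of Socs3, at 8.38 and 8.41, lie within the wild-type range.

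Both receptor chains rose. Il6st (chromosome 13) encodes gp130, the signalling chain shared by the receptors of the family, and had signals of 8.24, 8.50 and 8.26 in wild-type cells and of 9.76 and 9.48 in Dicer-deficient cells. The lowest Dicer-deficient value lay 0.98 above the highest wild-type value. The rise was 2.44-fold (log2 difference 1.29, SE 0.119, adjusted p = 0.000491), and the call survived removal of any single culture (0.00621 to 0.0342). Lifr (chromosome 15), the chain that gives the complex its specificity for LIF, had 8.25, 8.27 and 8.04 in wild-type cells and 8.56 and 8.62 in Dicer-deficient cells. The groups did not overlap, and wild-type culture 3 was the lowest. Lifr rose 1.32-fold (log2 difference 0.40, SE 0.0952, adjusted p = 0.0254). Lifr no longer passed when wild-type culture 1 or 2 was removed (adjusted p = 0.0636 or 0.0675), nor when Dicer-deficient culture 1 or 2 was (0.155 or 0.195). The difference stayed between 0.33 and 0.45 throughout.

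The calls among the other chains and the ligands of the family are set beside the 17.1% called over all genes. Several of these genes, such as Il6 and Osmr, lie under the array-wide median, so the counts are no result about them. None of Osmr, Il6ra, Cntfr and Il27ra passed (0 of 4 measured in limma, and 0 at an unadjusted p of 0.05), with log2 differences from -0.08 to 0.21. Among 7 measured ligands only Osm, oncostatin M, was called, at 4.85, 4.76 and 5.22 in wild-type and 5.86 and 5.71 in Dicer-deficient cells (log2 difference 0.84, adjusted p = 0.00603). Its wild-type signals lie under the array-wide median, and detection above background was not established. Osm did not pass when Dicer-deficient culture 1 or 2 was removed (adjusted p = 0.136 or 0.0931). Lif itself had 5.02, 5.30 and 5.43 in wild-type cells and 5.35 and 5.15 in Dicer-deficient cells, with equal means.

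Both kinases of the pathway rose. Jak2 (chromosome 19) went from signals of 5.46, 5.55 and 5.30 to 6.85 and 6.76. This was the largest difference of the 9 genes, a log2 difference of 1.37 (SE 0.0963, adjusted p = 0.000177), and it passed with any single culture removed (0.00307 to 0.0246). The wild-type mean of 5.44 is close to the array-wide median, and detection above background was not established, so the size of this rise is uncertain and no fold is given. Jak1 (chromosome 4), the kinase most needed for signalling through gp130, had 7.86, 7.88 and 7.64 in wild-type cells against 8.48 and 8.57 in Dicer-deficient cells. It rose 1.66-fold (log2 difference 0.73, SE 0.0982, adjusted p = 0.00243), but did not pass when Dicer-deficient culture 1 or 2 was removed (0.0558 or 0.0672). The groups did not overlap for either kinase, and wild-type culture 3 was again the lowest. Tyk2, a further kinase of the family, had 6.29, 6.48 and 6.42 against 6.74 and 6.67, a log2 difference of 0.31 (adjusted p = 0.0499) that did not pass once any single culture was removed (0.0858 to 0.256). All 3 measured members of the JAK family were thus called higher in the main fit of all 5 cultures. Over all genes 8.48% were called higher, and 13.5% of those above the array-wide median. Jak3 was not analysed, since no probe set carried only its symbol. The Tyk2 call is borderline, since it passed in only 3 of the 9 alternative fits that kept all 5 cultures.

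Stat3 moved the other way from the receptor and the kinases. Stat3 (chromosome 11) had signals of 8.59, 8.67 and 8.46 in wild-type cells and of 7.86 and 7.97 in Dicer-deficient cells. The highest Dicer-deficient value lay 0.49 below the lowest wild-type value. It was 1.58-fold lower (log2 difference -0.66, SE 0.0918, adjusted p = 0.00283). It did not pass with Dicer-deficient culture 1 removed (log2 difference -0.60, adjusted p = 0.0689), but passed with any 1 of the other 4 removed.

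Other STAT genes were lower as well. Of 6 measured STAT genes, Stat3 included, 5 fell, Stat5a did not pass (log2 difference -0.30, adjusted p = 0.12), and for all 6 both Dicer-deficient values lay below the wild-type range. The median log2 difference was -0.57, against 0.01 for all genes, of which 8.6% were called lower and 19.9% had both values below. Among genes above the array-wide median 14.4% were called lower. Stat2, which works with interferon receptors, had the largest difference of the 6, from 7.68, 7.44 and 7.48 to 6.72 and 6.50 (1.90-fold lower, adjusted p = 0.00133), and passed with any single culture removed (0.0114 to 0.0482). Stat4, an interleukin-12 signal transducer, had a log2 difference of -0.64 (adjusted p = 0.0117), which did not hold once wild-type culture 1 or 2 or either Dicer-deficient culture was removed (0.0595 to 0.176). Stat5b, which serves growth hormone and cytokine receptors, had -0.49 (adjusted p = 0.0345), and Stat6, the interleukin-4 transducer, had -0.37 (adjusted p = 0.041). Neither Stat5b nor Stat6 passed once any single culture was removed (0.0653 to 0.299 and 0.0762 to 0.263). The Dicer-deficient means of Stat4, 5.17, and of Stat5b, 5.41, lie near or under the array-wide median, so the sizes of these falls are uncertain.

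**Figure D2:**
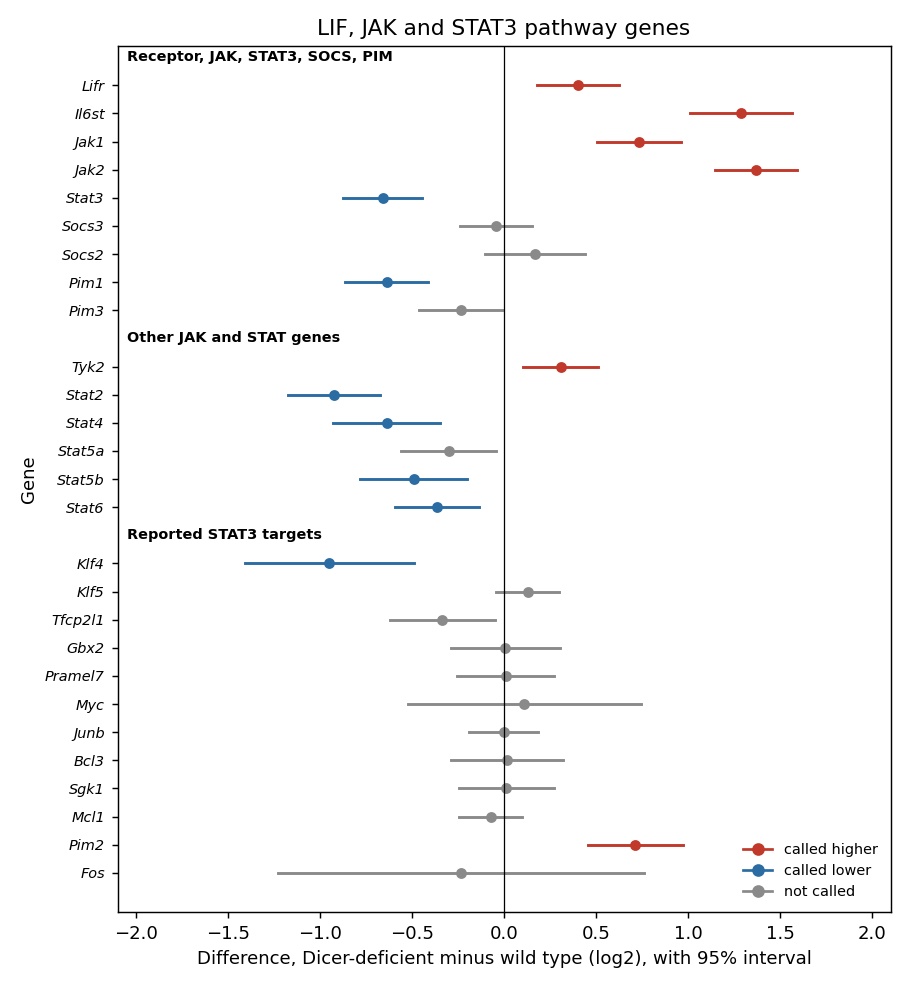
Log2 difference, Dicer-deficient minus wild type (horizontal axis), with limma's 95% interval (lines) for the 9 genes, the other measured JAK and STAT genes and reported STAT3 targets (rows); red points were called higher, blue points lower and grey points not called. JAK genes lie to the right of 0 and STAT genes to the left. Of the 12 further STAT3 targets 2 were called, near the 17.1% of all genes.

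Of the inhibitors, neither Socs3 nor Socs2 passed the test. Socs3 (chromosome 11) encodes the feedback inhibitor of gp130 and is a direct target of STAT3. The region before its start holds the letters of a STAT-type site, so this sequence is shown here, with those letters in capitals. The sequence is that of RefSeq in build GRCm38.p6, the 250 bases before the annotated start, chr11:117969367-117969616 on the minus strand, written in the direction of transcription.
Socs3: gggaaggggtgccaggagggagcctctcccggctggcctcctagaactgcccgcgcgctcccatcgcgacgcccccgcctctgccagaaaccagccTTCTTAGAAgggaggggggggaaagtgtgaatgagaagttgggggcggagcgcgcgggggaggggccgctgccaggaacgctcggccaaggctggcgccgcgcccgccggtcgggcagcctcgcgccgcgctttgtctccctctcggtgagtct

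The site was found by searching TTCNNNGAA, a pattern that reads the same on both strands, in windows from 250 bases before to 50 after each annotated start. It begins 154 bases before the start of Socs3. A match is a description of the letters and no evidence of binding. Of the 9 genes 8 had such a window, and Socs3 was the one with a match; Socs2 was not matched in the sequence table. Over all 32851 windows 8.3% held the pattern. Counted by gene, the share was 9.55% over all 27025 genes, 12.5% of the 8 and 9.76% of the 41 pathway genes named next. Neither count is a result about these genes. Of 41 other pathway genes with a window 4 held it: the inhibitor gene Cish with a pair of adjacent matches after its start, the kinase gene Sgk1, the adaptor gene Gab1 and the kinase gene Akt2. Their matches are shown with 10 bases on each side, to set them beside the Socs3 site, with the match in capitals.
Socs3, chr11:117969502-117969530, minus strand: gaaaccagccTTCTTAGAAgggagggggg
Cish, chr9:107296649-107296677, plus strand: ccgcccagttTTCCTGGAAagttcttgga
Cish, chr9:107296660-107296688, plus strand: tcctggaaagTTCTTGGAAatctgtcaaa
Sgk1, chr10:21881951-21881979, plus strand: gaaaaaccaaTTCAAAGAAccctcccaag
Gab1, chr8:80880473-80880501, minus strand: ccggaggagtTTCAGAGAAagtctgggct
Akt2, chr7:27591382-27591410, plus strand: tcactgggccTTCGGGGAAagcctacttg

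Of these 5 genes Akt2 rose, by 0.82 on the log2 scale. The differences of Socs3, Cish, Sgk1 and Gab1 lay between -0.11 and 0.01 and did not pass.

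The signals of Socs3 were 8.34, 8.48 and 8.50 in wild-type cells and 8.38 and 8.41 in Dicer-deficient cells, which overlap. The log2 difference was -0.05 with a 95% interval from -0.24 to 0.15 (adjusted p = 0.818). A further probe set of Socs3 had a difference of -0.03. Socs2 (chromosome 10), an inhibitor best known for restraining growth hormone signalling, had 8.21, 8.55 and 8.53 in wild-type cells and 8.63 and 8.57 in Dicer-deficient cells. Wild-type culture 1 was the lowest by 0.32, and the lower Dicer-deficient value exceeded the highest wild-type value by only 0.02. The log2 difference of 0.17 did not pass (95% interval -0.10 to 0.44, adjusted p = 0.435), was 0.06 without wild-type culture 1, and was 0.18 in a further probe set. Of 13 other inhibitors of the pathway, Socs4, of the same family, was the only one called. The shares over all genes were 17.1% called and 8.6% called lower, so this count is no result about the inhibitors. Socs4 had signals of 6.81, 6.77 and 6.90 against 6.24 and 6.54 (log2 difference -0.44, adjusted p = 0.0283). It did not pass with any 1 of the wild-type cultures or Dicer-deficient culture 1 removed (0.0883 to 0.185). The other SOCS, PIAS and phosphatase genes, Cish among them, had differences from -0.34 to 0.32.

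Of the PIM kinases, which promote survival and are induced by STAT factors, Pim1 fell, Pim2 rose and Pim3 did not pass. Pim1 (chromosome 17) had signals of 9.29, 9.18 and 9.17 in wild-type cells and of 8.69 and 8.46 in Dicer-deficient cells. The groups were 0.48 apart. Pim1 was 1.56-fold lower (log2 difference -0.64, SE 0.0958, adjusted p = 0.00386), but did not pass with Dicer-deficient culture 2 removed (log2 difference -0.52, adjusted p = 0.0596). Pim3 (chromosome 15) had 8.20, 8.27 and 8.43 against 8.13 and 8.0, so the groups were only 0.07 apart. Its log2 difference of -0.24 did not pass (95% interval -0.46 to -0.01, adjusted p = 0.161). Pim2 rose from 7.61, 7.63 and 7.70 to 8.19 and 8.53 (1.64-fold, adjusted p = 0.00439) and passed with any single culture removed (0.0233 to 0.0476).

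Of 12 further genes reported as STAT3 targets in mouse ES cells, Pim2 rose, Klf4 fell and 10 did not pass, with a median log2 difference of 0.01. The 2 of 12 called are near the 17.1% called over all genes, so the count is no result about these targets. Klf4, a self-renewal transcription factor, had 8.86, 8.76 and 8.57 in wild-type cells and 8.14 and 7.42 in Dicer-deficient cells (log2 difference -0.95, SE 0.197, adjusted p = 0.0151). Its Dicer-deficient values lay 0.72 apart, and Klf4 did not pass with any 1 of the wild-type cultures (0.0504 to 0.0915) or Dicer-deficient culture 2 (0.101) removed. Tfcp2l1, a self-renewal factor downstream of STAT3, had a log2 difference of -0.34 (adjusted p = 0.117), and Klf5 had 0.13 (adjusted p = 0.333). Myc was 6.17 and 7.15 in the Dicer-deficient arrays, against 6.61, 6.78 and 6.26 in the wild-type arrays. Fos, an immediate early gene, was 7.45 in wild-type culture 1 and between 5.84 and 6.33 in the other 4 cultures. For Myc and Fos the range within 1 genotype was larger than the difference between genotypes.

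In the ERK and PI3K branches of the receptor, 4 of 11 measured genes rose and 1 fell, where 8.48% of all genes rose and 8.6% fell, and the median log2 difference was -0.09. The genes that rose encode PI3K catalytic subunits and AKT kinases. The PI3K regulatory subunit gene Pik3r1 and the adaptor gene Gab1 did not pass (log2 differences -0.11 and -0.11, adjusted p = 0.515 and 0.58). Pik3cb, a catalytic subunit of PI3K, went from 8.46, 8.35 and 8.32 to 9.52 on both Dicer-deficient arrays (2.21-fold, log2 difference 1.14, adjusted p = 0.000177). Akt2, a kinase activated by PI3K, went from 9.12, 9.07 and 8.95 to 9.83 and 9.91 (1.77-fold, adjusted p = 0.000794). Both passed with any single culture removed (adjusted p up to 0.0214 and 0.035). Akt1 rose 1.44-fold (adjusted p = 0.00544, but 0.0663 with Dicer-deficient culture 1 removed). Pik3ca, another catalytic subunit, rose 1.35-fold (adjusted p = 0.0152), but did not pass with wild-type culture 2 (0.076) or Dicer-deficient culture 1 (0.0972) or 2 (0.143) removed. The gene that fell was Ptpn11, which encodes SHP2, the phosphatase that links gp130 to ERK signalling. It had 7.69, 7.63 and 7.43 in wild-type cells against 7.07 and 7.04 (1.44-fold lower, adjusted p = 0.0091), but did not pass with wild-type culture 2 (0.0605) or Dicer-deficient culture 1 (0.112) or 2 (0.118) removed. Of the ERK branch, Grb2, Sos1, Map2k1 and Map2k2 did not pass. Over all 53 measured genes of the pathway besides the 9, 7 rose and 7 fell, 14 in all, where the shares over all genes were 17.1% called, 8.48% higher and 8.6% lower. Among genes above the array-wide median the share called was 27.9%. Many of the 53 lie above that level and some, such as Lif and Il6, under it, so the count of 14 is no result about the pathway.

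**Figure D3:**
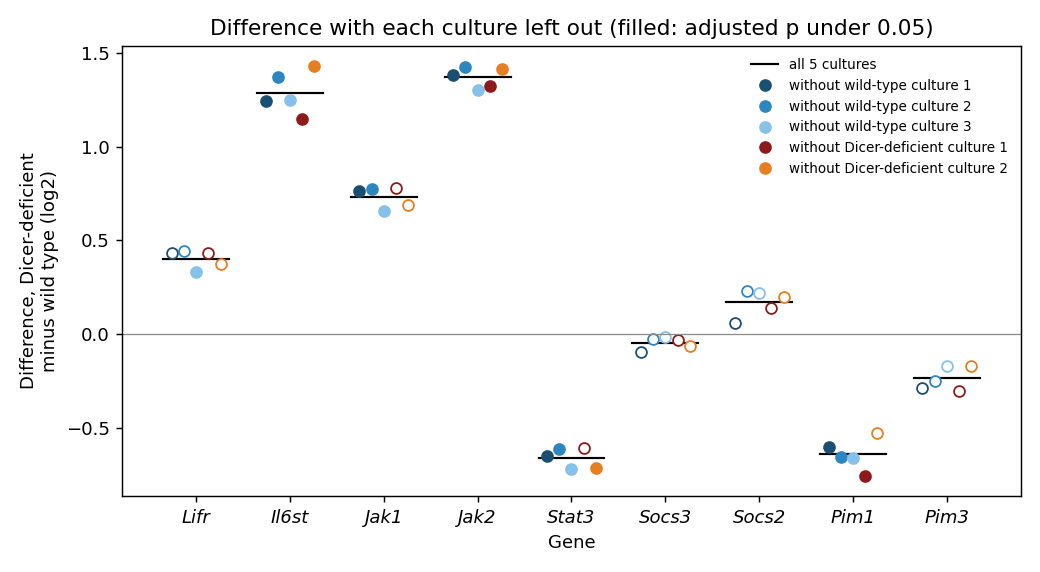
Log2 difference, Dicer-deficient minus wild type (vertical axis), of the 9 genes (horizontal axis) with all 5 cultures (black lines) and with each culture left out in turn (points, filled where the adjusted p stayed under 0.05). The sign was kept in all 5 fits for each gene, and Il6st and Jak2 are the 2 genes whose points are all filled.

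The genes whose values ran closest to each called gene were found over the 5 arrays by the root mean square (RMS) of the difference after each gene's own mean was subtracted, among 11188 genes above the median level. This describes likeness on these arrays only, where the genotypes dominate. For Il6st the closest were Prom1, Atp9a and Ube2l6 (RMS 0.0562 to 0.0649), and for Jak2 they were Cdk19, Prom1 and Tnfrsf8 (0.0371 to 0.0466). Prom1, a membrane glycoprotein, was thus near both, with a log2 difference of 1.34. Those closest to Lifr were G3bp2, Camk1d and Rnf149 (0.0102 to 0.0248), and those closest to Jak1 were Lpcat1, Pggt1b and Htr1b (0.0307 to 0.0316). Stat3 ran closest to Bod1, Zfp516 and Gcdh (0.0172 to 0.0256), and Pim1 to Morn4, Rpph1 and Uck2 (0.0167 to 0.0325).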

How the data were processed

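The authors deposited 1 table of log2 signals, normalized between arrays, for 35556 probe sets on 5 arrays. Background correction, probe summary and normalization are not given in the sources used here. The log base was read from the values, which run from 2.38 to 14.66; another base would rescale differences but no p-value. Probe sets were named through the platform annotation, which can be old: 21789 had 1 symbol, 1621 several and 12146 none. Only those with 1 symbol were used, so 10 of 63 further pathway genes were not analysed here. Sequences come from RefSeq tables of build GRCm38.p6.

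Dicer-deficient was compared with wild type by limma 3.58.1 in R 4.3.3 (lmFit and eBayes, 3 residual and 4.54 prior degrees of freedom), without covariates, and p-values were adjusted by Benjamini-Hochberg over all 19938 genes. The fit was tested on simulated data. With 3 and 2 arrays there are 10 ways to divide the labels, so an exact permutation p could not fall under 0.1 and none is given. SEs are limma's moderated ones, and precision is limited by how few arrays there are. The members and lists were chosen with earlier results of these data known. The text names all 9 members, Dicer1, called genes of each list and the 3 nearest patterns of each called member; uncalled genes were named to show a list or after their values were seen. Alternatives were other normalizations, priors, weights, probe set choices, a level filter, a 2-fold minimum, a replicate block and leaving out each array.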

Additional observations from a re-analysis of the deposited data

How the results depend on the processing

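Under the alternatives tried, the sign of the difference was kept for all 9 genes, and no called gene reversed. With each culture left out, the members called numbered 2 to 4 higher and 1 to 2 lower, the further pathway genes 3 to 6 higher and 1 to 5 lower, and all genes 536 to 1396 higher and 434 to 1560 lower. Leaving out a Dicer-deficient culture leaves 1, which is assumed to vary like the wild-type cultures. The labels do not say whether equal replicate numbers mark a shared day or batch. The difference between cultures 1 and 2 of the wild type and that of the Dicer-deficient cells correlated with r = 0.04 over genes. With only 2 shared numbers this single comparison cannot decide whether the cultures are paired. With the replicate number as a block, 2 members were called higher, Jak1 and Jak2, and 2 lower, with Il6st at adjusted p = 0.0592 and Lifr at 0.0903; of the further pathway genes 3 were higher and 2 lower, and of all genes 477 and 417. Adjusting over all probe sets gave 2 further pathway genes lower and, of all genes, 1036 higher and 922 lower; Lifr had adjusted p = 0.076. That fit held 35556 features, and its prior had 2.44 degrees of freedom in place of 4.54; the cause was not tested. A 2-fold minimum by construction left 2 members higher (Il6st and Jak2) and 0 lower, 1 and 0 of the further pathway genes, and 307 and 151 of all genes. The median of all genes moved by less than 0.1 in every fit. Signal over background was not analysed here, which limits the sizes given for Jak2, Osm, Stat4 and Stat5b.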
